A study of Rattus norvegicus with 12 samples.

Results

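The paraventricular nucleus of the hypothalamus (PVN) was compared between rats given partial hepatectomy with sham electroacupuncture (HT+SEA) and rats given hepatectomy alone (HT). The measure was the read counts of circular RNAs (circRNAs). The comparison used 6 libraries, 3 of HT and 3 of HT+SEA, out of 12 in the series, chosen by their labels and not by any measured value. All animals were male Sprague-Dawley rats bought at 7 weeks of age, and no transgene or deletion was involved. In both groups roughly 20% of the liver's left lobe had been cut away under isoflurane, and the awake rats were held in a restraint device for sessions of 30 min. In HT+SEA, needles were placed at the acupoints Zusanli and Sanyinjiao on a single side with no stimulator connected, and in HT no needle was placed. The methods time electroacupuncture at 24 h ahead of surgery and again directly after it, and give the sham no separate timing. Tissue was taken 24 h after the last treatment. The comparison therefore concerned the needles, without current, on a background of surgery and restraint that both groups shared. The remaining groups were unoperated, restrained controls (NC) and operated rats whose needles carried current (HT+EA).

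A circRNA is a closed RNA loop that forms when the end of an exon is spliced back to the start of an exon upstream of it. Having no free ends, it resists exonucleases, and circRNAs are abundant in brain, where many come from genes of synapses and neurons. Some circRNAs carry sites for microRNAs (miRNAs), short RNAs that bind their targets mainly through the seed, bases 2 to 8 from the 5′ end. The PVN holds the neurons that release corticotropin-releasing hormone and so drives the pituitary and adrenal response to stress, surgery included. Needles without current serve in such studies as the control for insertion and handling.

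The deposited table gave each circRNA a running identifier and no coordinates, sequence or host gene, so no marker of the dissected tissue could be checked. The study gives a host gene for a pair of its circRNAs but joins neither to an identifier, and identifiers were not matched to positions here. What sequence could be shown is that of the miRNAs that the study paired, by prediction, with its node circRNAs, the circRNAs of its interaction network. The mature sequences below, with the seed in capitals, are from RefSeq on the build GRCr8. They belong to the partners of 3 node circRNAs described further on: novel_circ_0011248, which passed adjustment, novel_circ_0021753, which had the next smallest p among the node circRNAs, and novel_circ_0002212, which had their lowest log2 fold change. The levels of these miRNAs were not analysed here.

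Paired by the study with novel_circ_0011248 were rno-miR-31a-5p (gene Mir31, chr5:108714906-108714927, minus strand), rno-miR-204-3p (Mir204, chr1:229743532-229743553, plus strand), rno-miR-331-3p (Mir331, chr7:30414401-30414421, minus strand) and novel_854.
rno-miR-31a-5p: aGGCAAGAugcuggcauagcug
rno-miR-204-3p: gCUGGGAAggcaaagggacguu
rno-miR-331-3p: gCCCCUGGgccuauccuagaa
Paired with novel_circ_0021753 were rno-miR-3084a-3p (Mir3084a, chr19:55718541-55718562, minus strand, and Mir3084a-4, chr6:93551127-93551148, minus strand), rno-miR-22-3p (Mir22, chr10:60805387-60805408, plus strand) and rno-miR-128-3p, a miRNA enriched in neurons (Mir128-1, chr13:42251933-42251953, plus strand, and Mir128-2, chr8:120963807-120963827, minus strand).
rno-miR-3084a-3p: uUCUGCCAguccccuucagaca
rno-miR-22-3p: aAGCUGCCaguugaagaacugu
rno-miR-128-3p: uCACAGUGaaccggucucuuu
Paired with novel_circ_0002212 were rno-miR-125a-5p (Mir125a, chr1:67350689-67350712, plus strand) and rno-miR-351-5p (Mir351, chrX:137725157-137725181, minus strand), which have the same seed.
rno-miR-125a-5p: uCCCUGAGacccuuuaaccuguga
rno-miR-351-5p: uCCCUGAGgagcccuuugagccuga

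The table listed 21914 circRNAs, of which 18026 (82.3%) had a count in at least 1 of the 6 libraries. The total count was 183559, 247720 and 134903 in HT replicates 1 to 3 and 258005, 177533 and 192748 in HT+SEA replicates 1 to 3. The groups overlapped, with means of 188727 ± 56586 (SD, n = 3) in HT and 209429 ± 42751 (SD, n = 3) in HT+SEA (exact permutation p = 0.6, two-sided). These totals are reads assigned to circRNAs, not the whole sequencing depth. A library listed 8679 to 12112 circRNAs, and at the depth of the smallest library 8679 to 9542 would be expected in HT and 9200 to 9628 in HT+SEA (exact permutation p = 0.4). The 10 most abundant circRNAs held 5.98% to 6.30% of the reads in HT and 5.65% to 6.14% in HT+SEA (exact permutation p = 0.6). With 3 libraries against 3 the smallest p of these exact tests was 0.1, and after adjustment over 5 such measures each p was 0.6. The table held no value of 1 in these libraries, so a circRNA at 0 in a library either had under 2 reads there or was not called.

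The circRNA profiles of the groups were not told apart by the whole-profile comparison. Levels are given as CPM, the count per 1000000 reads of the tested circRNAs. On the log2 CPM scale the pseudo-F statistic of HT+SEA against HT was 0.970 (exact permutation p = 0.7), and group membership took 19.5% of the squared distance between libraries. Pairs of libraries correlated across circRNAs at 0.73 to 0.81 within HT, 0.75 to 0.80 within HT+SEA and 0.71 to 0.84 between the groups. HT replicate 3, the library with the smallest total, stood apart on the first principal component with a score of 41.8, against −14.1 to −2.77 for the others. HT+SEA replicate 2 stood apart on the second, with 35.7 against −13.7 to −0.929. No pair agreed within counting error (chi-square over its degrees of freedom 2.92 to 4.01), and each library was counted as a sample of its own.

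**Figure D1:**
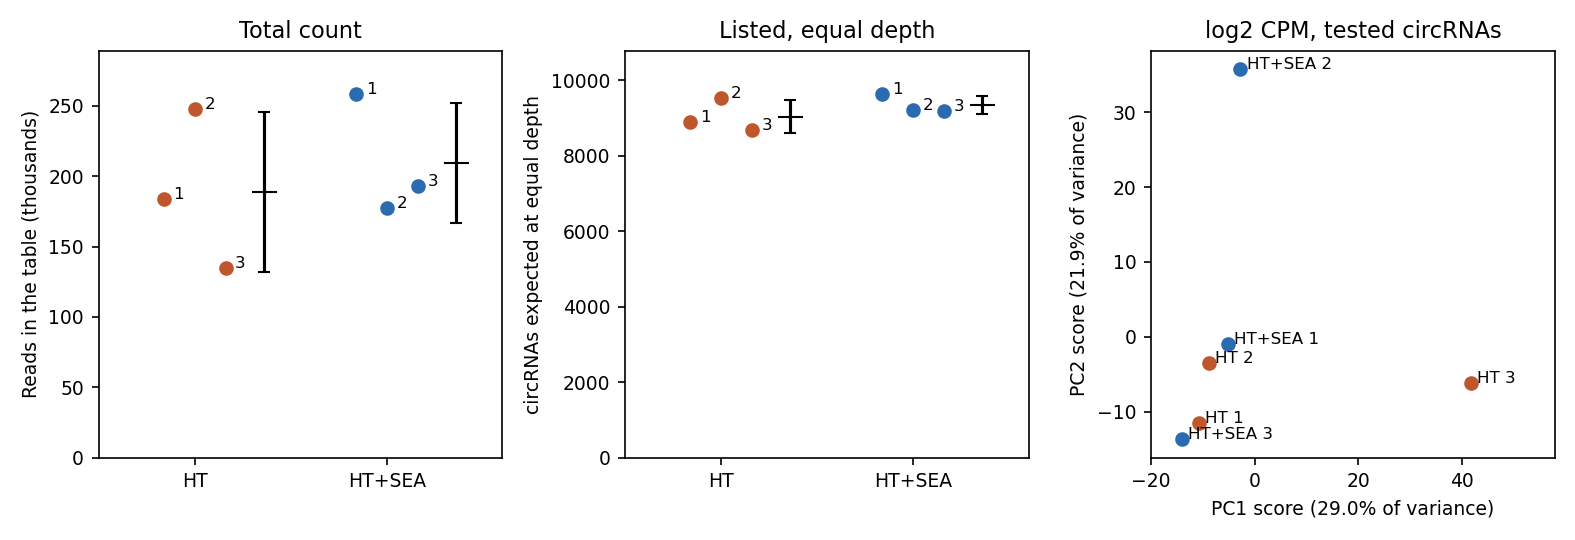
Left, total count per library (axis in units of 1000 reads); middle, circRNAs expected per library at the depth of the smallest library; right, scores on the first 2 principal components of log2 CPM of the tested circRNAs. Points are libraries with their replicate numbers, and bars show mean ± SD (n = 3); the groups overlap in the first 2 panels, and HT replicate 3 and HT+SEA replicate 2 lie away from the other 4 libraries in the right panel.

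For most circRNAs no difference between sham-needled and untreated operated rats was detected beyond the spread of the replicates. Of the 3454 circRNAs with enough counts to be tested, 124 (3.59%) had an unadjusted p below 0.05, fewer than the 172.7 that make up 5% of the tested. Of these, 64 (1.85%) were higher in HT+SEA and 60 (1.74%) were lower. After Benjamini-Hochberg adjustment 1 circRNA passed (0.0290%), novel_circ_0011248, and the next smallest adjusted p was 0.141 (edgeR's quasi-likelihood test). The circRNA that passed was at 0 in all HT libraries and had enough counts to be tested through HT+SEA alone, so its p is a description. The median log2 fold change over the tested circRNAs was 0.01 and their median size of change was 0.24. Between replicates the common biological coefficient of variation was 30.2%.

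The 106 circRNAs with p below 0.05 and a count in all 6 libraries were 57 that were higher and 49 that were lower. The higher ones had fitted ratios of HT+SEA to HT of 1.23 to 3.33, with a median of 1.82. The lower ones had ratios of 0.125 to 0.849, with a median of 0.542. Their mean level was close to that of the tested circRNAs as a whole, with medians of 140 CPM for all 124 and 136 CPM for the tested. All 3 HT+SEA libraries lay above all 3 HT libraries for 156 of the tested circRNAs (4.52%) and below them for 163 (4.72%).

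With DESeq2, 25 circRNAs had an unadjusted p below 0.05 and 3 passed adjustment, and with limma-voom 142 and 0 did. When HT replicate 3 was left out, 124 circRNAs again had p below 0.05, of which 66 were among the 124 found with all libraries, and 2 passed adjustment. Without HT+SEA replicate 1, 4 passed adjustment, and without HT+SEA replicate 3, 2 passed.

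**Figure D2:**
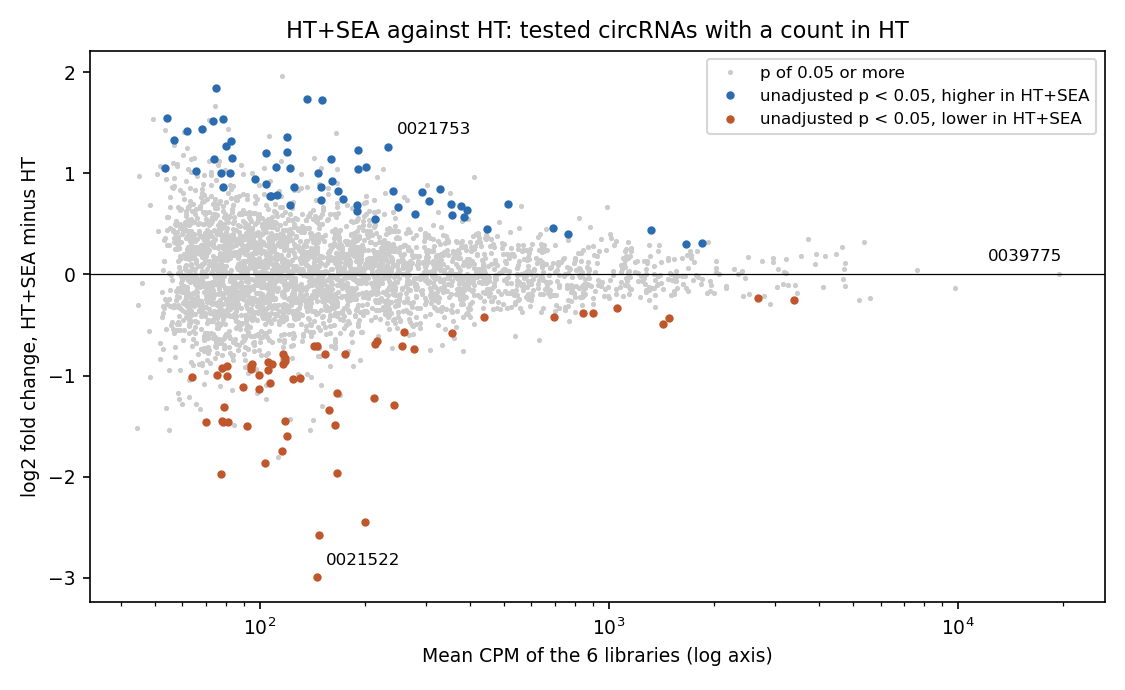
Each point is a tested circRNA with a count in HT, plotted by its mean CPM over the 6 libraries (log axis) and its log2 fold change of HT+SEA minus HT. Blue points are the higher and orange points the lower circRNAs at unadjusted p below 0.05; the scatter narrows from low to high CPM, novel_circ_0021522 lies lowest at −3.00, and novel_circ_0039775, the most abundant, lies at 0.01.

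Smaller differences could generally be seen for the more abundant circRNAs. The 95% interval of the log2 fold change lay within 2-fold in either direction for 1521 of the 3454 tested circRNAs (44.0%). It did so for 767 of the 864 most abundant (88.8%), which had a mean of 262 CPM or more, and for 40 of the 864 least abundant (4.63%), at 85.3 CPM or less. The median standard error of the log2 fold change was 0.21 among these most abundant and 0.48 among the least abundant. The share at p below 0.05 was 3.24% in both, and 4.06% and 3.82% in the 2 bands of abundance between them.

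The circRNA that passed adjustment was listed in every HT+SEA library and in no HT library. The count of novel_circ_0011248 was 0 in all 3 HT libraries, and 141, 96 and 128 in HT+SEA replicates 1 to 3, or 678, 659 and 813 CPM. The adjusted p was 0.00172 (edgeR's quasi-likelihood test), and no fold is given because HT was listed at 0 throughout. It passed the filter on low counts through the HT+SEA libraries alone, so that a difference from HT was set by its passing, and its p is given as a description. It passed adjustment in 13 of 16 alternative fits, with an adjusted p of 0.922 by limma-voom, 0.874 in a fit of all 12 libraries and 0.215 with the replicate number as a block. These fits hold the same zeros in HT, so the tally is a description too. The counts of novel_circ_0011248 in NC were 105, 96 and 128, and those in HT+EA were 76, 0 and 84. The libraries without it were thus the 3 of HT and HT+EA replicate 2. The study had placed it among the circRNAs lowered by surgery, a choice made with these HT libraries, so its low level in HT is part of how it was chosen.

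A library at 0 for a circRNA that others listed in quantity was found in both groups. In 160 circRNAs at least 1 of the 6 libraries was at 0 although the share in the other 5 predicted 20 counts or more. Each library had 24 to 41 such zeros, with 24, 28 and 40 in HT and 29, 41 and 36 in HT+SEA. Only novel_circ_0011248 was listed at 20 or more counts in all libraries of a group and at 0 in all of the other. At 10 or more counts a second one was novel_circ_0032940, named here after its values were seen. Its counts were 0 in the 3 HT libraries and 25, 18 and 18 in HT+SEA. It too passed the filter through HT+SEA alone, and no p is given for it. NC had 0, 24 and 0 of them, and HT+EA 21, 39 and 0.

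With no minimum on the count, 137 of the 18026 circRNAs (0.760%) were listed in all HT+SEA and no HT library and 55 (0.305%) in all HT and no HT+SEA library. At 5 or more counts these became 11 and 3. The mean total count was lower in HT, and the part of depth in these numbers was not tested.

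The lower circRNA with the smallest p was novel_circ_0021522. Its counts were 42, 72 and 16 in HT and 7, 5 and 5 in HT+SEA. As CPM the HT libraries had 278, 357 and 140.5 and the HT+SEA libraries 33.7, 34.3 and 31.7. All HT+SEA libraries lay below all HT libraries and close to each other, while HT libraries spread by more. The difference in log2 level was −3.00 ± 0.45 (SE), with a 95% interval of −4.01 to −1.99 and an adjusted p of 0.141 (edgeR). The NC libraries had 41, 44 and 10 counts and the HT+EA libraries 6, 98 and 11, so low values occurred in both of those groups too. Its adjusted p was below 0.05 in 4 of 17 alternative fits, among them that without HT replicate 3 (adjusted p = 0.0139, edgeR) and DESeq2 (adjusted p = 0.00639). As it was picked for its small p, this tally is a description.

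The higher circRNA with the smallest p among those counted in all 6 libraries was novel_circ_0021753. Its counts were 19, 27 and 17 in HT and 57, 57 and 51 in HT+SEA. On the CPM scale HT had 126, 134 and 149 and HT+SEA 274, 392 and 324, with no overlap. This is a log2 fold change of 1.26 ± 0.25 (SE), with a 95% interval of 0.69 to 1.84 and an adjusted p of 0.629 (edgeR). Its direction and an unadjusted p below 0.05 were found in 17 of 17 alternative fits, and an adjusted p below 0.05 in 0. This circRNA was picked for its small p, and these fits reuse the same counts, so the tally is a description. The study had also placed it among the circRNAs lowered by surgery, a choice made with these HT libraries. NC had 77, 60 and 37 counts, and HT+EA 21, 107 and 25.

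The node circRNAs were divided by the authors according to the contrast and direction in which each had changed, HT against NC for surgery and HT+EA against HT for electroacupuncture. All 44 identifiers were in the table: 16 in the surgery-lowered list, 6 in the surgery-raised list, 13 in the electroacupuncture-raised list and 9 in the electroacupuncture-lowered list. Because both of those contrasts used the 3 HT libraries that also serve here, the directions below are not independent evidence, and they are given as a description. Of the 44, 23 had enough counts to be tested, and 8 of these had p below 0.05, where 3.59% of all tested circRNAs did. The HT+SEA libraries lay above all HT libraries for 5 of the 23 and below them for 2, where 4.52% and 4.72% of all tested circRNAs did so. The median log2 fold change of the 23 was 0.25, against 0.01 for all tested circRNAs.

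**Figure D3:**
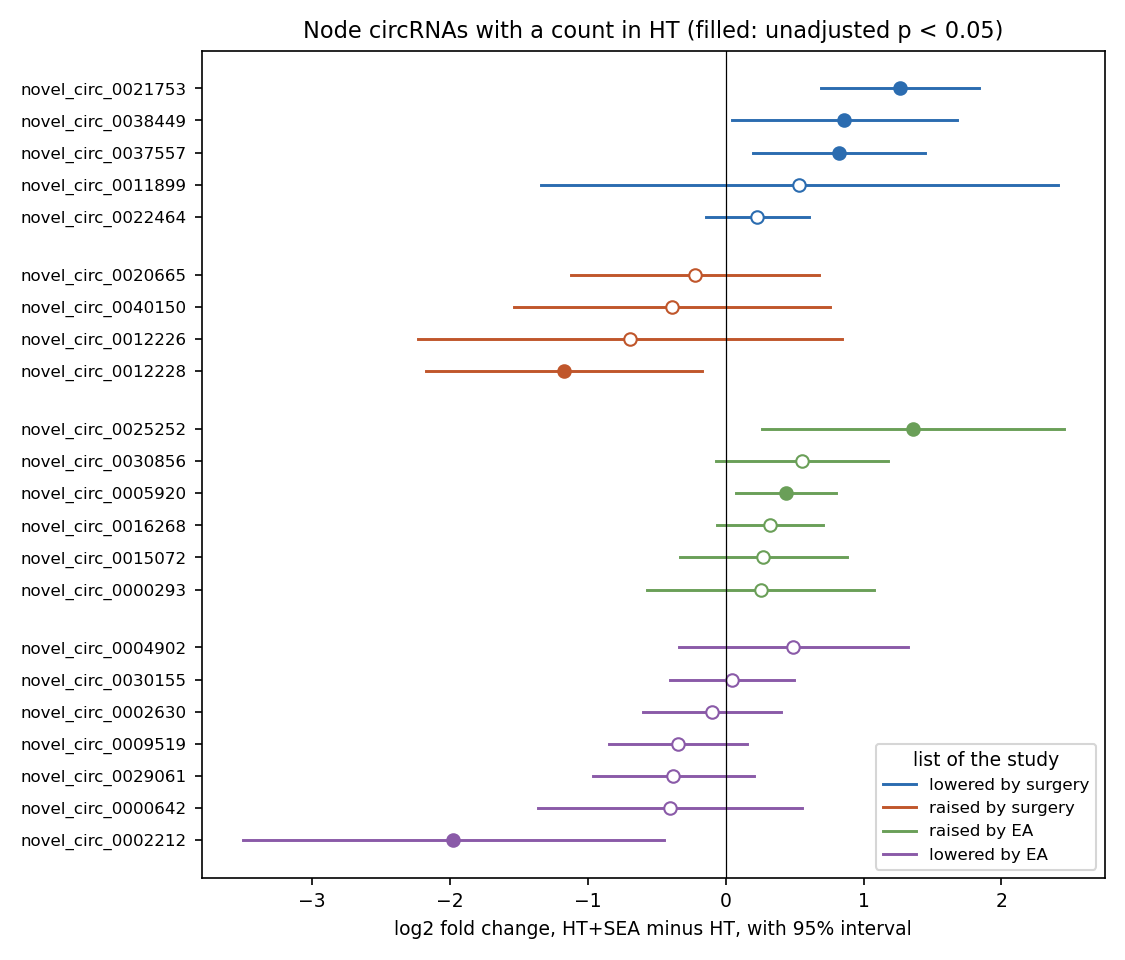
Log2 fold change of HT+SEA minus HT with its 95% interval for the tested node circRNAs with a count in HT, coloured by list. Filled points have an unadjusted p below 0.05; points of the lists lowered by surgery and raised by electroacupuncture lie to the right of 0, those raised by surgery to the left, and the list lowered by electroacupuncture on both sides.

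In the surgery-lowered list 6 of 16 circRNAs were tested. All 6 had a higher fitted level in HT+SEA than in HT, 4 of them with p below 0.05. The median log2 fold change was 0.84, in which novel_circ_0011248 counts as the highest value. Beside it and novel_circ_0021753, these were novel_circ_0037557 and novel_circ_0038449. The counts of novel_circ_0037557, paired with rno-miR-3543, were 19, 29 and 10 in HT and 49, 28 and 35 in HT+SEA. Scaled as CPM, HT had 126, 144 and 87.8 and HT+SEA 236, 192 and 222, a log2 fold change of 0.82 ± 0.28 (SE). Its p was 0.05 or more by DESeq2 and, in edgeR, without HT+SEA replicate 1.

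The counts of novel_circ_0038449, which shares rno-miR-3084a-3p as a predicted partner with novel_circ_0021753, were 8, 12 and 6 in HT and 22, 16 and 14 in HT+SEA. The CPM values were 53.0, 59.5 and 52.7 in HT and 106, 110 and 88.9 in HT+SEA, a log2 fold change of 0.86 ± 0.36 (SE). Both circRNAs had an adjusted p of 0.981 (edgeR). The p of novel_circ_0038449 was 0.05 or more in 11 of 17 alternative fits, which included leaving out any of the 6 libraries. Its NC counts of 42, 26 and 34 lay above those of every HT+SEA library. The member with the smallest change was novel_circ_0022464, with 1337, 1399 and 1080 CPM in HT and 1784, 1401 and 1302 CPM in HT+SEA, so that the groups overlapped (log2 fold change 0.23, 95% interval −0.14 to 0.60).

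The other 10 circRNAs of that list were below the filter, and 8 of them were at 0 in all 3 HT libraries. They were listed in 0 of the 3 HT+SEA libraries in 2 cases, in 1 library in 4 cases, in 2 libraries in 3 cases and in all 3 in 1 case. HT+SEA replicate 1, the deepest of the 6 libraries, listed 8 of the 10, and replicates 2 and 3 listed 3 and 2. The 2 with the highest counts in HT+SEA were novel_circ_0018079, with 31, 0 and 0, and novel_circ_0017802, with 23, 0 and 22, both named here after their values were seen. In NC the counts were 38, 36 and 26 for the first and 12, 17 and 18 for the second. novel_circ_0035558, also named after its values were seen, was at 0 in all 6 libraries, whereas its counts were 38, 48 and 42 in NC, and 0, 68 and 36 among the HT+EA libraries.

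In the surgery-raised list 4 of 6 circRNAs were tested. All 4 had a lower fitted level in HT+SEA, with a median log2 fold change of −0.54, though the groups overlapped for each. In 1 of them p was below 0.05. This was novel_circ_0012228, paired with rno-miR-33-5p and rno-miR-667-5p, with 26, 61 and 26 counts in HT and 37, 11 and 7 in HT+SEA. In CPM it had 172, 303 and 228 in HT and 178, 75.6 and 44.4 in HT+SEA. Replicate 1 of HT+SEA lay within the HT range, so the groups overlapped. The log2 fold change was −1.17 ± 0.44 (SE), with an adjusted p of 0.981 (edgeR). The p was 0.0507 with the replicate block, and 0.119, 0.0707 and 0.0781 without HT replicate 2, HT+SEA replicate 2 and HT+SEA replicate 3 (edgeR). Without HT+SEA replicate 1 the log2 fold change was −1.99. The member with the smallest difference was novel_circ_0020665, with 1278, 576 and 816 CPM in HT and 423, 639 and 1232 CPM in HT+SEA, and a log2 fold change of −0.22 (95% interval −1.12 to 0.67). Its sign turned, to 0.13 and 0.09, without HT replicate 1 and without HT+SEA replicate 1.

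In the electroacupuncture-raised list 6 of 13 circRNAs were tested, and all 6 had a higher fitted level in HT+SEA than in HT, with a median log2 fold change of 0.38. In 2 of them p was below 0.05. The first was novel_circ_0025252, paired with rno-miR-138-5p, with 5, 24 and 4 counts in HT and 40, 16 and 36 in HT+SEA. HT replicate 2, at 119 CPM, lay above HT+SEA replicate 2, at 110 CPM, and the other HT libraries were at 33.1 and 35.1 CPM. The log2 fold change was 1.36 ± 0.48 (SE), and 2.37 without HT replicate 2. Its p was 0.05 or more in 6 of 17 alternative fits, which included leaving out any single library except HT replicate 2 and HT+SEA replicate 2.

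The second was the more abundant novel_circ_0005920, paired with rno-miR-497-5p, with 188, 249 and 99 counts in HT and 341, 211 and 233 in HT+SEA. HT had 1245, 1236 and 869 CPM and HT+SEA 1640, 1449 and 1479 CPM, without overlap. HT+SEA was higher by 0.44 ± 0.16 (SE) on the log2 scale, with an adjusted p of 0.981 (edgeR). Without HT replicate 3 the unadjusted p of the edgeR fit was 0.0775, and without HT+SEA replicate 1 it was 0.0870. In HT+EA it had 258, 533 and 283 counts. The member with the smallest change was novel_circ_0000293, with 185, 278 and 255 CPM in HT and 149, 357 and 381 CPM in HT+SEA (log2 fold change 0.25, 95% interval −0.57 to 1.08). Without HT+SEA replicate 3 its log2 fold change was −0.01.

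In the electroacupuncture-lowered list 7 of 9 circRNAs were tested. In HT+SEA 5 had a lower and 2 a higher fitted level than in HT, with a median log2 fold change of −0.34, and 1 had p below 0.05. This was novel_circ_0002212, whose predicted partners rno-miR-125a-5p and rno-miR-351-5p share a seed. It had 25, 17 and 13 counts in HT and 0, 8 and 7 in HT+SEA. In HT the CPM was 165.5, 84.4 and 114, and in HT+SEA 0, 55.0 and 44.4, with all HT+SEA libraries below all HT libraries. HT+SEA was lower, with a log2 fold change of −1.98 ± 0.68 (SE) and an adjusted p of 0.981 (edgeR). Without HT+SEA replicate 1, the library at 0, the log2 fold change was −1.25, and without HT replicate 1 its unadjusted p was 0.0699 (edgeR). By limma-voom the unadjusted p was 0.140, with a log2 fold change of −3.30. NC had 10, 13 and 11 counts.

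At the other end of that list was novel_circ_0004902, paired with rno-miR-296-3p, with 106, 179 and 237 CPM in HT and 279, 295 and 140 CPM in HT+SEA. The groups overlapped, and the log2 fold change was 0.49 ± 0.37 (SE). Its HT+EA counts of 14, 0 and 9 lay below the 58, 43 and 22 of HT+SEA. The difference between HT+EA and HT+SEA had an unadjusted p of 5.21e-04 and an adjusted p of 0.983 (edgeR fit of all 12 libraries). The study made this list with the same HT+EA libraries. Low counts of novel_circ_0004902 in HT+EA are thus part of how it was chosen, and this p is given as a description.

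**Figure D4:**
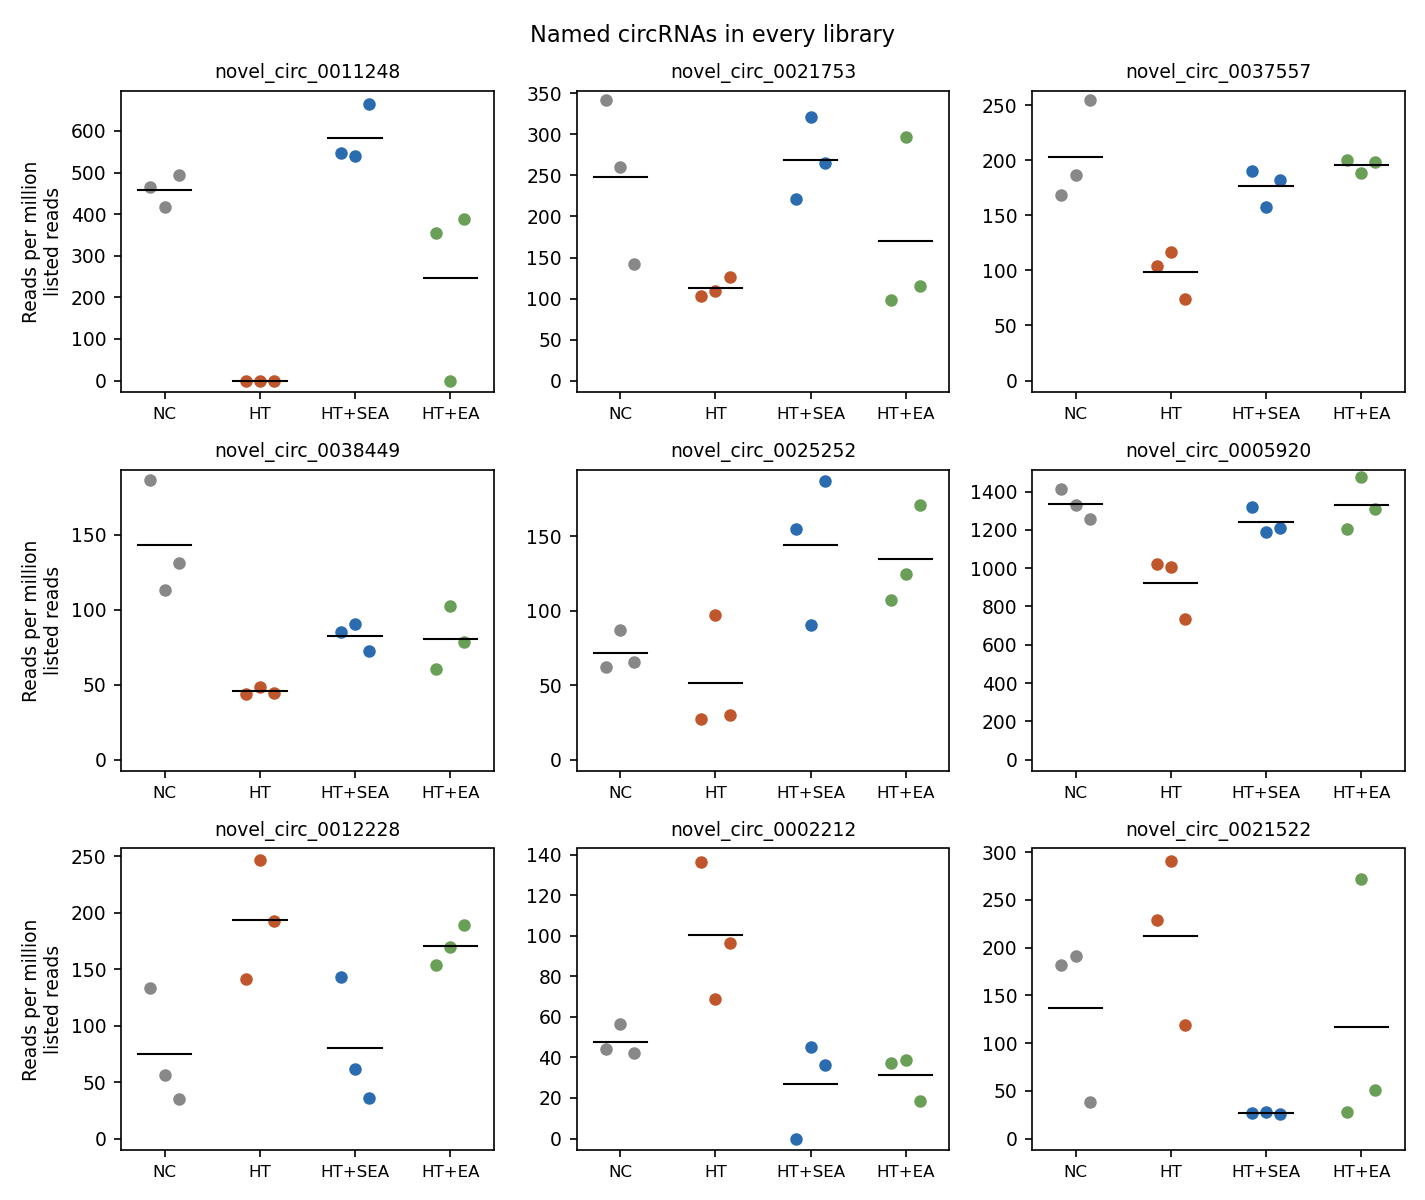
Reads per 1000000 listed reads of 9 circRNAs in every library of the 4 groups; points are libraries and black lines group means (n = 3). These are the 8 node circRNAs with p below 0.05 and novel_circ_0021522; in the first panel the 3 HT libraries and HT+EA replicate 2 lie at 0, and in the last the 3 HT+SEA libraries lie close together at the bottom of the range.

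The most abundant circRNAs of the PVN differed by less than 2-fold between sham-needled and untreated operated rats. For the 10 of highest mean CPM the groups overlapped, p was 0.05 or more, and each 95% interval lay within 2-fold. The first was novel_circ_0039775, with 21568, 19178 and 17391 CPM in HT and 19378, 18548 and 20482 CPM in HT+SEA. Its log2 fold change was 0.01 ± 0.08 (SE), with a 95% interval of −0.18 to 0.19, and its sign changed with the fit. The second, novel_circ_0034471, had a mean of 10268 ± 696 CPM (SD, n = 3) in HT and 9379 ± 1359 CPM (SD, n = 3) in HT+SEA. The third, novel_circ_0010853, had 7543 ± 197 CPM (SD, n = 3) and 7761 ± 662 CPM (SD, n = 3).

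Among these 10 the highest fold change was that of novel_circ_0016268, which the study also lists among those raised by electroacupuncture. It had 3740, 6257 and 4363 CPM in HT and 5531, 6135 and 6349 CPM in HT+SEA, a log2 fold change of 0.32 ± 0.17 (SE, adjusted p = 0.981, edgeR). HT replicate 2 lay within the HT+SEA range, and without that library the log2 fold change was 0.56 (unadjusted p = 0.000736, adjusted p = 0.466, edgeR). Leaving out any other single library gave an unadjusted p of 0.0897 to 0.283 (edgeR). The lowest was that of novel_circ_0019548, at −0.25 ± 0.11 (SE). This circRNA had 5720, 6103 and 5144 CPM in HT and 5392, 4266 and 4609 CPM in HT+SEA, and p was below 0.05 in 7 of 17 alternative fits. The widest spread was in novel_circ_0020672, where HT replicate 1, at 8672 CPM, was the highest library and HT replicate 2, at 3826 CPM, the lowest. The other 4, novel_circ_0014383, novel_circ_0034129, novel_circ_0034467 and novel_circ_0004584, had log2 fold changes of 0.12, −0.12, 0.06 and −0.05.

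The circRNAs measured with the smallest standard errors were novel_circ_0039775, novel_circ_0010853, novel_circ_0009645, novel_circ_0025813 and novel_circ_0034129, at 0.08 to 0.10 on the log2 scale. For novel_circ_0009645 the levels were 3621, 3706 and 3907 CPM in HT and 3776, 4081 and 4209 CPM in HT+SEA (log2 fold change 0.10, 95% interval −0.10 to 0.31). For novel_circ_0025813 they were 2628, 2868 and 2959 CPM in HT and 3054, 3112 and 3048 CPM in HT+SEA. Here the HT+SEA libraries lay above all HT libraries, as in 4.52% of the tested circRNAs, with a log2 fold change of 0.12 (95% interval −0.09 to 0.34). The interval excluded a 1.5-fold difference in either direction for each of the 5.

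**Figure D5:**
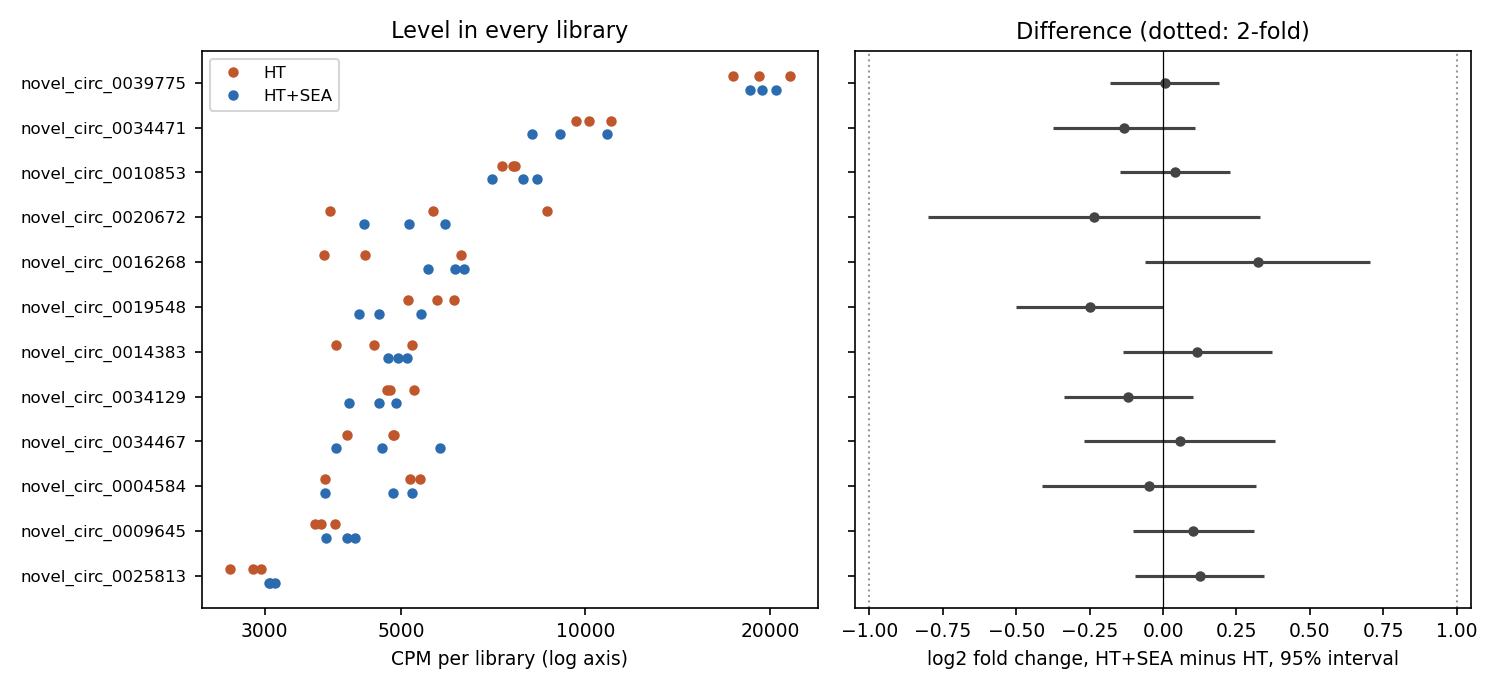
Left, CPM per library (log axis) of the 10 most abundant circRNAs and of 2 others among the 5 with the smallest standard errors; right, log2 fold change of HT+SEA minus HT with its 95% interval, with dotted lines at 2-fold. HT and HT+SEA libraries overlap in all but novel_circ_0025813, and every interval lies within the dotted lines.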

How the data were processed

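Per the study's methods, total RNA of the PVN was made into strand-specific libraries and sequenced on Illumina instruments; reads were filtered for adapters and quality. The methods name the rat assembly mRatBN7.2, HISAT2 and featureCounts for the sequencing data in general, while the submitters' processing notes name human builds (GRCh38 and hg38). How circRNAs were called, and from how many reads, is not given in the sources used here. Raw read counts per circRNA and library were deposited, not normalised; 12 TPM columns in the same table were not used. The study's methods name 12 rats in 4 groups and say that brain samples came from different animals of a single batch, without tying a library to a rat, so p-values measure the spread between libraries, which may in part be technical.

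Counts of the 6 libraries were fitted with edgeR 4.0.16 in R 4.3.3 (glmQLFit with legacy = FALSE, glmQLFTest, two-sided, TMM). The filterByExpr filter (minimum count 10, minimum total 15) left 3454 circRNAs, 15.8% of the table, holding 80.9% to 83.2% of the reads of a library. CPM is per 1000000 of these reads, and log2 CPM uses a prior count of 2. Standard errors came from the F statistics. p-values were adjusted by Benjamini-Hochberg over all tested circRNAs. The study's methods gave p below 0.05 by DESeq2 without saying whether it was adjusted, so both were counted. Library values and profiles were compared by exact permutation over the 20 partitions of the 6 libraries; listing at equal depth is the hypergeometric expectation at 134903 reads, values below 2 taken as 0. The fits were also run on simulated counts, drawn with a single spread for all circRNAs and no added zeros in well-counted ones. No result here rests on that run.

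Replicate numbers are shared by the groups, but no source ties them to cages or days, and same-numbered libraries did not deviate together (correlations −0.05, −0.04 and −0.06), so no block was used. No batch is labelled. Alternatives were other scalings, filters, edgeR options, DESeq2 1.42.0, limma-voom 3.58.1, a fit of all 12 libraries, the block, leaving out circRNAs at 0 in a library where at least 20 counts were expected, and leaving out each library. Intervals of fits of counts cover counting error and the spread between libraries.

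Named circRNAs are the higher and the lower with the smallest p, also among those counted in all 6 libraries, the 10 most abundant, the 5 with the smallest standard error, node circRNAs with p below 0.05, and the highest and lowest log2 fold change of each node list. The comparison, the lists and these rules were chosen with earlier results of these data known. Of 38 miRNAs paired with node circRNAs, 35 were found in RefSeq's table (GRCr8).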

Additional observations from a re-analysis of the deposited data

How the results depend on the processing

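The number of circRNAs at unadjusted p below 0.05, 124 in the report, was 611 without a filter, 389 with a mean count of at least 2, 25 with DESeq2 and 79 with the replicate number as a block, and 105 to 181 when 1 library was left out. More circRNAs were tested under the first 2 (18026 and 9676). The number at adjusted p below 0.05, 1 in the report, was 16 without a filter, of which 9 were at 0 in at least 4 of the 6 libraries, 3 with DESeq2 (novel_circ_0011248, novel_circ_0021522 and novel_circ_0032940), 0 with limma-voom, 0 in the fit of all 12 libraries, 0 with the block, and 1 to 4 when 1 library was left out. Without HT replicate 3 novel_circ_0021522 also passed, without HT+SEA replicate 3 novel_circ_0003217, and without HT+SEA replicate 1 novel_circ_0010960, novel_circ_0012226 and novel_circ_0027986. Of these, novel_circ_0012226 is in the surgery-raised node list, which was made with these HT libraries. Its counts were 54, 90 and 54 in HT and 126, 10 and 7 in HT+SEA. With circRNAs at 0 where at least 20 counts were expected left out, novel_circ_0021522 was the 1 that passed. Other scalings, the legacy and the robust fit gave 114 to 126 and 1.

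The difference in mean total count, 20701 in the report, ran from −6211 (without HT replicate 3) to 50198 when 1 library was left out and was −3587 without HT+SEA replicate 1; that in circRNAs listed, 719, ran from −10.7 (without HT replicate 3) to 1600. The pseudo-F ran from 0.884 to 1.04 when 1 library was left out. The log2 fold change of novel_circ_0039775, which was near 0, was negative with median-ratio size factors (−0.0040), total counts only (−0.0015), DESeq2 (−0.0044) and all 12 libraries (−0.00030), and ran from −0.068 to 0.081 when 1 library was left out. The sign also turned for 6 others when 1 library was left out, over which the log2 fold change ran from −0.015 to 0.11 for novel_circ_0010853, −0.49 to 0.11 for novel_circ_0020672, −0.098 to 0.18 for novel_circ_0034467, −0.20 to 0.080 for novel_circ_0004584, −0.75 to 0.13 for novel_circ_0020665 and −0.0053 to 0.61 for novel_circ_0000293. None of these had p below 0.05 in the report. The causes were not tested.

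The number of tested node circRNAs at p below 0.05, 8 in the report, was 17 without a filter, 15 with a mean count of at least 2 and 5 without HT+SEA replicate 3. The number of intervals within 2-fold, 1521, was 786 with DESeq2. Chosen after seeing the data were the alternatives for listing: circRNAs in all HT+SEA and no HT library, 137, numbered 212 to 409 when 1 library was left out, and those in all HT and no HT+SEA library, 55, numbered 100 to 260, since fewer libraries had to match.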
